A study of Mus musculus with 24 samples.

Results

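The effect of inhaled benzene was taken as an average over 2 kinds of surgery in the mouse heart: 12 benzene libraries against 12 air libraries, which are all 24 libraries of the count table. They form 4 groups of 6 in a 2 by 2 layout. Male C57BL/6 mice underwent either transverse aortic constriction (TAC), a narrowing of the aortic arch that raises the pressure against which the left ventricle pumps, or sham surgery. After 1 week of recovery they breathed benzene at 50 ppm or HEPA-filtered air. Exposure ran for 6 hours a day on 5 days a week, over 6 weeks. The groups are called Sham/Benzene, Sham/Air, TAC/Benzene and TAC/Air, so that every mouse had an operation and every control breathed filtered air. Poly-A RNA of the left ventricle and septum was sequenced, and the labels give neither the age of the mice nor the mouse behind each library. P-values therefore measure the spread between these samples, part of which may be technical.

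Benzene is a volatile aromatic hydrocarbon that the enzyme CYP2E1, most of it in the liver, oxidises to phenol, hydroquinone and other reactive products, and its best known target is the bone marrow, where blood cells are made. Pressure overload makes cardiomyocytes grow and turn on genes of the fetal heart, such as those of natriuretic peptides, beta myosin heavy chain and skeletal actin. Leukocytes reach the loaded heart from the blood by way of adhesion molecules such as selectins, and resident macrophages and dendritic cells show peptides there on class II molecules of the major histocompatibility complex (MHC).

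Sequencing depth, as the total count of a library, was 9396445 to 14632231 in the Sham/Benzene group and 4170660 to 12718494 in the Sham/Air group. It was 10016860 to 13724100 in the TAC/Benzene group and 10479981 to 13581729 in the TAC/Air group. The shallowest library, Sham/Air replicate 1, stood apart: its Spearman correlations with the other libraries were 0.852 to 0.913, against 0.963 to 0.996 among the other 23. Sham/Benzene replicate 4 carried a separate peak of heat shock transcripts, described below. The summed level of the 15 cardiomyocyte marker genes was 80490 to 104000 CPM in Sham/Benzene, 90290 to 106900 in Sham/Air, 68560 to 81980 in TAC/Benzene and 63920 to 83380 in TAC/Air. Nkx2-5, a transcription factor gene that defines cardiac muscle, had 10 counts (2.84 CPM) in Sham/Air replicate 1 and 36.8 to 78.1 CPM in the other 23 libraries. CPM stands for counts scaled to a common library size, here the totals scaled by the TMM method of edgeR.

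Averaged over surgery, few genes passed in the main fit. Of 13571 tested genes, 26 passed, which is 0.192% of them, and 17 of these were higher (0.125%) and 9 lower (0.0663%) in benzene (edgeR quasi-likelihood test, Benjamini-Hochberg adjusted p under 0.05). Before adjustment, 983 of the 13571 had a p under 0.05, and 6739 had a change above 0. The number passing depended on the fit. The alternatives given below called from 12 genes (additive model) to 327 (GC content and length offsets without Sham/Air replicate 1). Only 4 of the 26 changed by a factor of 2 or more on average: Hspa1b, Hspa1a, Retnlg and S100a9. Higher genes included neutrophil markers (S100a9, S100a8, Lcn2, Retnlg, Csf3r), genes of protein folding (Hspa1a, Hspa1b, Manf) and genes of striated muscle (Acta1, Abra, Fhl1). Which cells made these transcripts was not measured in this bulk tissue. Lower genes included 3 of MHC class II presentation (H2-Aa, H2-Ab1, Cd74), the macrophage receptor gene Cx3cr1, the kinase gene Mylk4 and the matrix genes Spon1, Smoc1 and Col6a6.

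The 2 surgeries contributed unequally to this average. Benzene against air gave 3 calls in sham hearts (0.0221% of tested genes), 1 higher (0.00737%) and 2 lower (0.0147%). It gave 79 calls in TAC hearts (0.582%), 40 higher (0.295%) and 39 lower (0.287%). Before adjustment, the genes with a p under 0.05 were 777 in sham and 837 in TAC, which is far less unequal. The spread within groups was wider in sham. For genes averaging 100 to 300 counts in a group, the median variance over that of counting noise was 4.03 in Sham/Benzene and 6.76 in Sham/Air. It was 2.07 in TAC/Benzene and 3.35 in TAC/Air. The part of this spread in the numbers of calls was not tested. The sham calls were Hspa1b and a pair of lung genes, Scgb1a1 and Sftpc, both lower with benzene. Scgb1a1, the gene of a club cell secretory protein, had 0.206, 0.801 and 1.35 CPM in Sham/Benzene and 3.69, 6.76 and 7.97 CPM in Sham/Air, and Sftpc, the gene of a lung surfactant protein, had 0, 0.335 and 0.633 CPM in Sham/Benzene and 1.1, 1.85 and 2.74 CPM in Sham/Air. For both the sham groups were apart. Both passed the count filter through Sham/Air, where all 6 libraries reached its level of 0.873 CPM, against 2 of 6 in Sham/Benzene for Scgb1a1 and 0 of 6 for Sftpc, so nothing is read from their being called. The 17 listed lung epithelium genes are summed without Hopx, which heart muscle also expresses and which makes up most of their level. The other 16 summed to 1.51 to 3.98 CPM in Sham/Benzene and 7.10 to 12.7 CPM in Sham/Air, which did not overlap. These 16 include Scgb1a1 and Sftpc, so their sum is no separate support. Of the 17 genes, 3 were tested (Hopx, Scgb1a1 and Sftpc), and their median sham change of -2.57 is likewise only a description. The part of lung RNA in the sham values was not tested. The fitted change was larger in TAC for 23 of the 26 genes, and 22 of the 26 were also called in TAC alone, 1 was called in sham alone (Hspa1b) and 3 were called in neither (Spon1, Manf and Hspa1a). The average and its 2 parts share their libraries, so these counts describe where the average came from and are no independent support. The difference between the 2 effects was itself called for 23 genes (0.169%), above 0 for 9 (0.0663%) and below 0 for 14 (0.103%), with 7 of the 23 among the 26. Genes were then placed by the 4 tests together. A gene moved in both surgeries if the average was called, the sign was the same and each surgery alone had an unadjusted p under 0.05, with no called difference between them; 9 genes met this. A gene moved in TAC only if it was called in TAC, its difference between surgeries was called, and its unadjusted p in sham was 0.05 or more; 14 genes met this. The matching rule for sham only found 0 genes in edgeR and 4 in DESeq2, while 196 genes (1.44%) met its form with unadjusted p, beside 262 (1.93%) for the same form in TAC. A further 9 genes had a called difference and opposite signs, each with an unadjusted p under 0.05, and 10 of the 26 met none of these rules.

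**Figure D1:**
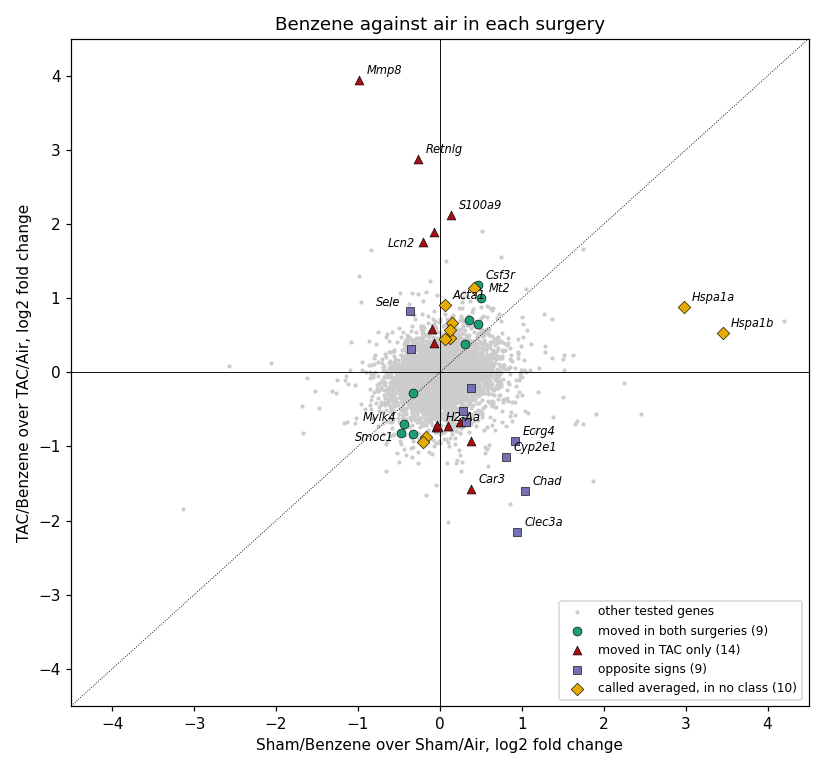
Log2 fold change of benzene over air in sham hearts (horizontal axis) and in TAC hearts (vertical axis) for the 13571 tested genes, 1 point a gene, with 6 libraries in each group; the dotted line marks equal change. The 14 genes moved in TAC only lie along the vertical axis, the 9 moved in both surgeries lie in the upper right and lower left, the 9 with opposite signs lie in the upper left and lower right, and Hspa1a and Hspa1b lie far to the right.

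Some of the 26 genes fall into 3 sets that have well known control sequences before their start, which are shown because they are the classic elements of each set: the Y box of class II genes, the metal response element of metallothionein genes and the heat shock element of HSP70 genes. Of the 26 genes, 20 had an entry in the RefSeq promoter table of build GRCm38.p6. Each line gives the 200 bases before the annotated start, 5′ to 3′ on the strand of the gene, with matches to the motif in capitals; both strands were searched. The build differs from the one that the reads were aligned to, so these positions describe the annotation and not the counts.

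For class II, the Y box was searched as CTGATTGG, which 3.54% of all 32851 promoter windows of this length hold. H2-Aa (chr17:34287824-34288023, minus strand) holds it at 51 bases before the start, and H2-Eb1 (chr17:34305667-34305866, plus strand), another class II gene that is not among the 26, holds it at 62 bases. Of the called class II genes, H2-Ab1 had no entry in the promoter table, and Cd74 is not shown.
H2-Aa: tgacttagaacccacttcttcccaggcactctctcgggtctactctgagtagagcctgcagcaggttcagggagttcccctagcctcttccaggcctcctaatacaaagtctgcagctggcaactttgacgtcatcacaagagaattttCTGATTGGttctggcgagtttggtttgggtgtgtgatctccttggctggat
H2-Eb1: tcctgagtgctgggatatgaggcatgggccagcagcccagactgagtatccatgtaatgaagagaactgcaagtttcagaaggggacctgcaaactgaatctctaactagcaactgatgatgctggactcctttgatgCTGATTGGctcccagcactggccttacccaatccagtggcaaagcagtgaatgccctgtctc

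For metallothioneins, the metal response element was searched as TGCACNC or TGCGCNC, which 18.2% of windows hold. Mt2 (chr8:94172418-94172617, plus strand) holds 2 such matches and Mt1 (chr8:94178889-94179088, plus strand) holds 1. Those of Mt2 lie 128 and 50 bases before the start, the second on the other strand, and that of Mt1 lies 23 bases before it.
Mt2: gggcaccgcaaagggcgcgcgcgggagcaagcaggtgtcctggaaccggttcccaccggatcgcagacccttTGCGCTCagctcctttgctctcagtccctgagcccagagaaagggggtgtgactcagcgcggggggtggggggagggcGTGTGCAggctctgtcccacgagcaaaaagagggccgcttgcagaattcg
Mt1: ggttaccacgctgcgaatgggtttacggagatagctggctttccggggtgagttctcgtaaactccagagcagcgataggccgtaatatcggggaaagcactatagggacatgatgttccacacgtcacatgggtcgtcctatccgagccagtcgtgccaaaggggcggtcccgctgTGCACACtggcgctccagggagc

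For HSP70, a pair of facing heat shock sites was searched as GAANNTTC, which 5.36% of windows hold. Hspa1a (chr17:34972157-34972356, minus strand) and Hspa1b (chr17:34959239-34959438, minus strand) hold 1 match each, at 104 bases before the start. Their windows are identical at 199 of 200 bases. The transcripts of this pair are also nearly alike, and reads may be split or lost between them, so the counts of each are uncertain. The letters of the Y box also stand in both windows, in lower case here.
Hspa1a: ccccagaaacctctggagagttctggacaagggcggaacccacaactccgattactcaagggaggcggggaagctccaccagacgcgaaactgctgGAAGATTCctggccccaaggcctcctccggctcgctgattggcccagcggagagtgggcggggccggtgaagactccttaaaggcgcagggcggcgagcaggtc
Hspa1b: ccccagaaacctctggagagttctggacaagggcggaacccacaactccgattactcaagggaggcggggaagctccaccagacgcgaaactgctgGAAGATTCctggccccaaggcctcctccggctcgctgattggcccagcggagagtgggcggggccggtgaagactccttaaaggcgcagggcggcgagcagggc

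Genes moved in both surgeries are those whose change had the same sign and an unadjusted p under 0.05 with and without load. There were 9, of which 5 rose (Csf3r, Serpina3n, Mt2, Cdkn1a, Manf) and 4 fell (Mylk4, Spon1, Smoc1, Col6a6). None of the 9 was called in sham by the edgeR adjusted p. Their sham side thus rests on the unadjusted p of genes already chosen by the average. With the replicate number as a block, 4 of the 9 kept this class (Csf3r, Serpina3n, Mylk4 and Spon1). For scale, 66 of the tested genes (0.486%) had the same sign and an unadjusted p under 0.05 in both surgeries. All 6 TAC/Benzene libraries lay above all 6 TAC/Air libraries for 1.5% of tested genes, and below for 1.21%. In sham hearts, where the spread within groups was wider, the shares were 0.162% above and 0.118% below. Values of a group are given as the lowest, the median and the highest of its 6 libraries. Log2 fold changes are benzene over air, with their standard error.

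Csf3r encodes the receptor of granulocyte colony-stimulating factor, through which neutrophils are made and survive. It had 1.85, 3.42 and 5.48 CPM in Sham/Benzene and 1.42, 2.51 and 3.06 CPM in Sham/Air. In TAC hearts it had 6.97, 7.61 and 9.02 CPM in TAC/Benzene and 3.16, 3.37 and 4.07 CPM in TAC/Air. In sham the groups overlapped, with 3 of 6 Sham/Benzene libraries above the air range, whereas the TAC groups were apart. Its average log2 fold change was 0.82 ± 0.13 (edgeR adjusted p = 0.00539), with 0.47 in sham and 1.17 in TAC. The average held in each of the 35 alternatives that gave one, but in sham the unadjusted edgeR p was 0.0543 once Sham/Air replicate 1 was left out and 0.159 once Sham/Benzene replicate 4 was, which ends its place in this class; it was also lost without Sham/Air replicate 2 or Sham/Benzene replicate 5.

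Serpina3n, which encodes a secreted inhibitor of serine proteases and belongs to the acute phase response, had 27.6, 32.1 and 55.8 CPM in Sham/Benzene and 15.6, 27.7 and 29.8 CPM in Sham/Air. After TAC it had 175, 185 and 194 CPM in TAC/Benzene and 111, 118 and 121 CPM in TAC/Air. Of the 6 Sham/Benzene libraries, 5 exceeded the Sham/Air range and replicate 3 was far above the rest, while the TAC groups did not meet. The average was 0.56 ± 0.10 (edgeR adjusted p = 0.00623), with 0.46 in sham and 0.65 in TAC. Its place held with each library left out, and was lost under limma-voom alone.

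Mt2 encodes a metallothionein, a small protein that binds zinc, copper and cadmium. It stood at 23.2, 33.9 and 49.6 CPM in Sham/Benzene and 7.39, 26.9 and 31.5 CPM in Sham/Air. In TAC it stood at 62.9, 70.3 and 83.4 CPM in TAC/Benzene and 27.3, 34.9 and 42.5 CPM in TAC/Air. Sham groups overlapped, with 4 of 6 Sham/Benzene libraries above the air range and Sham/Air replicate 1 far below its group, and the TAC groups were apart. The average was 0.75 ± 0.15 (edgeR adjusted p = 0.0226). It was 0.50 in sham and 1.00 in TAC. Without TAC/Air replicate 5 or TAC/Benzene replicate 4 the average missed the threshold, with adjusted p up to 0.0525 among the fits that left out 1 library. Its place in this class was also lost without Sham/Benzene replicate 1 or 6 and with the replicate block. Mt1, whose promoter is shown beside that of Mt2, did not pass on average (0.50 ± 0.11, edgeR adjusted p = 0.0587) and was called in TAC (0.67 ± 0.16, adjusted p = 0.0461).

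Cdkn1a encodes p21, an inhibitor of cyclin-dependent kinases and a target of p53. Its values were 17.2, 21.5 and 30.1 CPM in Sham/Benzene and 8.81, 18.3 and 21.2 CPM in Sham/Air. With TAC they were 43.7, 48.2 and 54.9 CPM in TAC/Benzene and 22.6, 29.8 and 36 CPM in TAC/Air. Again the sham groups overlapped and the TAC groups were apart. The average was 0.53 ± 0.11 (edgeR adjusted p = 0.0246), with 0.36 in sham and 0.71 in TAC. This call was among the less stable: it held in 15 of the 24 fits that left out 1 library, and in sham its unadjusted edgeR p was 0.0579 once Sham/Air replicate 1 was left out and 0.11 once Sham/Benzene replicate 4 was. Its place in this class held in 12 of those 24 fits. No other of the 27 tested p53 target and DNA damage genes was called, and the median of that list was 0.03 on the log2 scale.

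Manf encodes a secreted factor that cells make under stress of the endoplasmic reticulum. It had 36.3, 45.4 and 60.0 CPM in Sham/Benzene and 33.7, 37.3 and 45.2 CPM in Sham/Air. In the loaded hearts it had 40.1, 43.6 and 48.6 CPM in TAC/Benzene and 30.6, 35 and 35.6 CPM in TAC/Air. Here the effect was of like size in the 2 surgeries, 0.30 ± 0.10 in sham and 0.38 ± 0.10 in TAC, for an average of 0.34 ± 0.070 (edgeR adjusted p = 0.0298). The call held in 13 of 24 fits that left out 1 library, with adjusted p from 0.00324 to 0.0758. Among the 21 tested genes of endoplasmic reticulum stress it was the only one called, beside a list median of 0.067.

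Mylk4, a member of the myosin light chain kinase family, was lower with benzene. Sham hearts had 223, 271 and 337 CPM in Sham/Benzene and 300.1, 336 and 570.2 CPM in Sham/Air. TAC hearts had 107, 113 and 125 CPM in TAC/Benzene and 160.0, 192 and 209 CPM in TAC/Air. In sham, 5 of 6 benzene libraries were below the air range and Sham/Air replicate 1 was far above its group. After TAC no library overlapped. The average was -0.57 ± 0.092 (edgeR adjusted p = 0.00539), with -0.44 in sham and -0.69 in TAC. Without Sham/Air replicate 1 the sham change shrank to -0.27 and kept an unadjusted edgeR p of 0.00464; the average was called in all 35 alternatives.

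Spon1, which encodes the secreted matrix protein spondin 1, was the only one of the 26 genes whose libraries were apart in both surgeries. It had 34.2, 38.5 and 44.9 CPM in Sham/Benzene and 45.5, 50.1 and 52 CPM in Sham/Air. It had 30.5, 34.5 and 35.6 CPM in TAC/Benzene and 39.3, 41.4 and 42.5 CPM in TAC/Air. Every benzene library lay below every air library of its surgery. The changes were close to equal, -0.33 ± 0.073 in sham and -0.28 ± 0.072 in TAC, and the average was -0.31 ± 0.051 (edgeR adjusted p = 0.00623). Its class held under all 34 alternatives in which it could be set.

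Smoc1 encodes a secreted calcium-binding protein of the matrix. Its sham values were 2.96, 5.35 and 5.91 CPM in Sham/Benzene and 5.11, 6.76 and 8.52 CPM in Sham/Air. Its TAC values were 2.84, 4.29 and 5.52 CPM in TAC/Benzene and 4.99, 7.61 and 8.62 CPM in TAC/Air. Both pairs of groups overlapped, with 3 of 6 benzene libraries below the air range in sham and 5 of 6 in TAC. The average was -0.65 ± 0.12 (edgeR adjusted p = 0.0173), with -0.47 in sham and -0.82 in TAC, and it held with each library left out but not with the replicate block (adjusted p = 0.0617).

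Col6a6, one of the chains of type VI collagen, had 6.33, 8.32 and 9.15 CPM in Sham/Benzene and 8.96, 9.4 and 13.3 CPM in Sham/Air. TAC hearts had 1.37, 1.94 and 2.78 CPM in TAC/Benzene and 2.44, 3.8 and 4.45 CPM in TAC/Air. The 2 groups overlapped in both surgeries, with 5 of 6 Sham/Benzene and 4 of 6 TAC/Benzene libraries below the air range. The average was -0.58 ± 0.11 (edgeR adjusted p = 0.0242), with -0.32 in sham and -0.84 in TAC. Leaving out TAC/Air replicate 6 or TAC/Benzene replicate 2, 3 or 4 ended the call (adjusted p at most 0.0603), and without Sham/Air replicate 1 the sham change had an unadjusted edgeR p of 0.083. Its place in this class held in 14 of the 24 fits that left out 1 library. It was also lost without Sham/Air replicate 5 or without Sham/Benzene replicate 1, 4, 5 or 6.

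**Figure D2:**
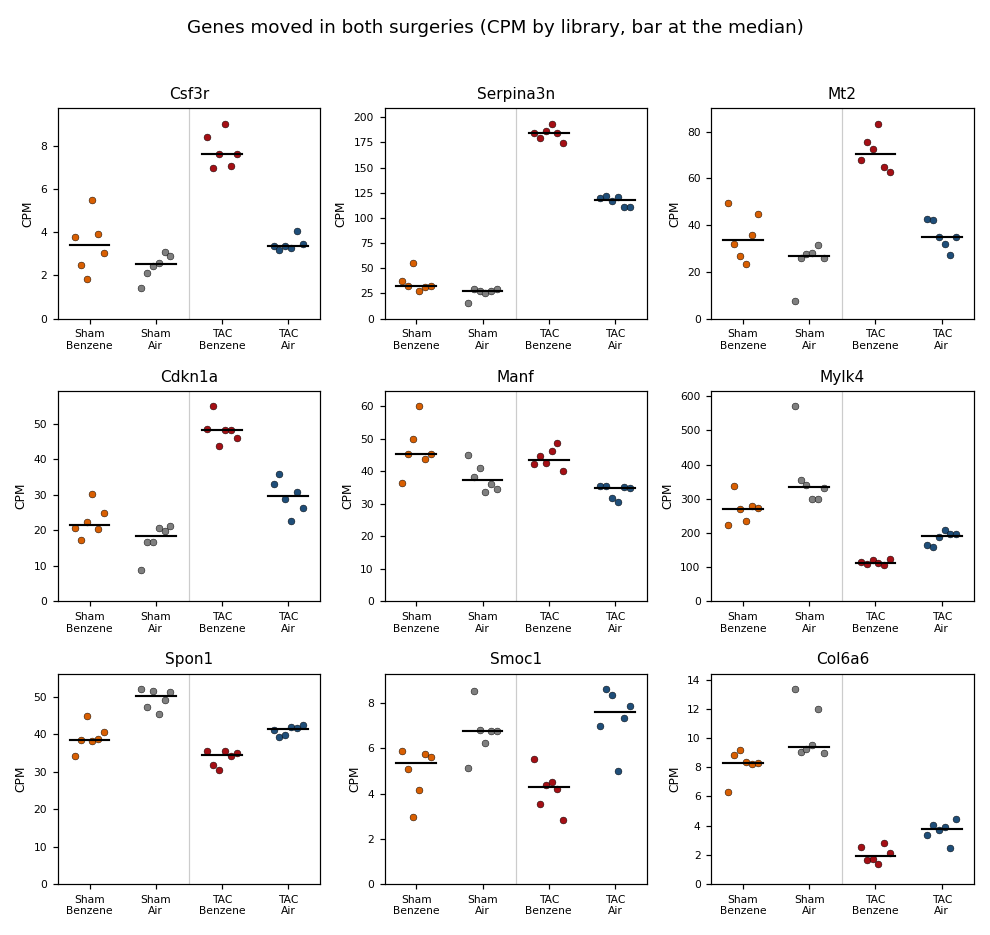
CPM of the 9 genes moved in both surgeries, 1 panel a gene, on linear axes from 0; each point is a library (6 a group) and each bar the median of a group. Spon1 is the gene whose benzene libraries lie wholly below the air libraries in both surgeries, while in the other panels the sham groups overlap; the far point in Sham/Air for Mt2 (low) and Mylk4 (high) is replicate 1.

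The 14 genes moved in TAC only fell into neutrophil genes, which rose, class II genes, which fell, and a mixed remainder. Of these 14, 7 were called in the average as well. Mmp8, among the 14, passed the count filter through TAC/Benzene, the group where it is high.

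S100a9 and S100a8 encode the 2 subunits of calprotectin, an abundant protein of the neutrophil cytosol. S100a9 had 2.68, 5.02 and 8.5 CPM in Sham/Benzene and 3.23, 5.04 and 5.53 CPM in Sham/Air. In TAC hearts it had 15.9, 18.8 and 20.1 CPM in TAC/Benzene and 3.57, 3.85 and 5.97 CPM in TAC/Air. The ranges of the sham groups overlapped, and every TAC/Benzene library was above every TAC/Air library. The change was 2.12 ± 0.20 in TAC and 0.14 ± 0.22 in sham, and their difference was 1.98 ± 0.30 (edgeR adjusted p = 0.00173). Averaged over surgery it was 1.13 ± 0.15 (adjusted p = 0.00071), the smallest p of all genes.

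S100a8 followed the same order, with 1.37, 3.3 and 5 CPM in Sham/Benzene and 2.56, 3.33 and 4.72 CPM in Sham/Air. After TAC it had 9.69, 11 and 15.8 CPM in TAC/Benzene and 2.21, 2.96 and 4.68 CPM in TAC/Air. As for S100a9, only the TAC groups were apart. The change was 1.90 ± 0.23 in TAC and -0.08 ± 0.26 in sham, and the difference between surgeries was 1.98 ± 0.34 (edgeR adjusted p = 0.00742).

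Lcn2, which encodes the granule protein lipocalin 2 that withholds iron from bacteria, had 2.85, 5.52 and 6.91 CPM in Sham/Benzene and 4.43, 6 and 9.11 CPM in Sham/Air. After TAC the levels were 15.2, 17 and 20.5 CPM in TAC/Benzene and 3.78, 5.22 and 6.17 CPM in TAC/Air. No Sham/Benzene library exceeded the Sham/Air range, and all 6 TAC/Benzene libraries exceeded the TAC/Air range. The change was 1.76 ± 0.17 in TAC and -0.21 ± 0.18 in sham, and the difference of 1.97 ± 0.25 had the smallest p of all genes for the interaction (edgeR adjusted p = 0.00046). The average was 0.77 ± 0.13 (adjusted p = 0.00539).

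Retnlg, which encodes a resistin-like protein made by mouse neutrophils, was at 0.37, 0.765 and 1.17 CPM in Sham/Benzene and 0.403, 1.07 and 1.46 CPM in Sham/Air. In TAC it was at 3.27, 4.82 and 5.59 CPM in TAC/Benzene and 0.181, 0.551 and 1.1 CPM in TAC/Air. The level in sham hearts was low in both groups, and the TAC groups were apart. The change was 2.88 ± 0.31 in TAC and -0.27 ± 0.38 in sham (edgeR adjusted p of the difference = 0.00259). Mmp8, the neutrophil collagenase, was lower still: raw counts per library were 0 to 7 in Sham/Benzene, 3 to 7 in Sham/Air, 14 to 38 in TAC/Benzene and 0 to 3 in TAC/Air. Because of how Mmp8 passed the filter, nothing is read from its called difference between surgeries (edgeR adjusted p = 0.00742). The size of its fitted fold depends on the prior count because TAC/Air was close to 0. Its place in this class was lost under DESeq2, with a filter at an average of 1 CPM and without Sham/Benzene replicate 2.

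Of 28 listed neutrophil genes, 11 had enough counts to be tested, and 5 of those 11 were called higher on average and 0 lower; the median change of the 11 was 0.91, against -0.0012 over all tested genes. In TAC 9 of the 11 were called higher, in sham 0. Over all 13571 tested genes 17 were called higher on average (0.125%) and 40 in TAC (0.295%). Of the 11, Mmp8 reached 10 counts in TAC/Benzene alone and so passed the filter through the group where it is high. These counts and the median are therefore a description. The summed level of all 28 was 19.6 to 40.1 CPM in Sham/Benzene, 22.4 to 32.4 in Sham/Air, 76.6 to 87.9 in TAC/Benzene and 22.1 to 29.1 in TAC/Air. The TAC/Benzene libraries thus stood alone, and 2 of the 28 genes had no count in any of their 6 libraries. In bulk tissue, more cells of a type and more RNA per cell cannot be told apart.

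Genes of recruitment were measured beside them. Cxcl1, the chemokine that draws neutrophils, did not pass on average (0.79 ± 0.22, edgeR adjusted p = 0.209) and was called in TAC (1.5 ± 0.30, adjusted p = 0.0119). Icam1, the endothelial ligand of leukocyte integrins, passed in neither (average 0.38 ± 0.12, adjusted p = 0.295; TAC 0.62 ± 0.17, adjusted p = 0.129). For Cxcl1 the interaction was not called (adjusted p = 0.483).

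The class II genes moved the other way. H2-Aa and H2-Ab1 encode the alpha and beta chains of the I-A molecule, and Cd74 the invariant chain that guides it to the endosome. H2-Aa had 45.8, 57.9 and 60.6 CPM in Sham/Benzene and 52, 57.2 and 60.4 CPM in Sham/Air. With TAC it had 35.3, 41.4 and 42.4 CPM in TAC/Benzene and 62.4, 66.5 and 72.5 CPM in TAC/Air. The ranges of the sham groups overlapped, and every TAC/Benzene library was below every TAC/Air library. The change was -0.74 ± 0.077 in TAC and -0.02 ± 0.077 in sham, with a difference of -0.71 ± 0.11 (edgeR adjusted p = 0.00173), and the average was -0.38 ± 0.054 (adjusted p = 0.00178).

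Cd74, the most abundant of them, had 106, 129 and 157 CPM in Sham/Benzene and 112, 141 and 145 CPM in Sham/Air. In the loaded hearts it had 88.4, 92.2 and 97.6 CPM in TAC/Benzene and 134, 152 and 169.5 CPM in TAC/Air. H2-Ab1 had 37, 51.6 and 56.9 CPM in Sham/Benzene and 44.8, 51.9 and 55.3 CPM in Sham/Air, and 32.9, 34.8 and 38.1 CPM in TAC/Benzene and 53.9, 57.6 and 60.3 CPM in TAC/Air. For both genes the sham groups overlapped and the TAC groups did not. The TAC changes were -0.73 ± 0.093 for Cd74 and -0.71 ± 0.090 for H2-Ab1 (edgeR adjusted p = 6.09e-05 and 6.09e-05), whereas in sham they were -0.04 and -0.03. With offsets for GC content and length, or with a replicate block, neither kept the place in this class; H2-Aa kept it in all 34 alternatives.

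Of 9 tested class II presentation genes, 3 were called lower on average and 0 higher, with a median of -0.33. Over all 13571 tested genes 9 were called lower (0.0663%) and 17 higher (0.125%). The list was written with earlier results of these data known, so its counts and median are a description. H2-Eb1, the beta chain of the I-E molecule, did not pass on average (-0.37 ± 0.11, edgeR adjusted p = 0.269) and was called in TAC (-0.72 ± 0.16, adjusted p = 0.0318). The summed level of the 10 listed genes was 278 to 373 CPM in Sham/Benzene, 291 to 362 in Sham/Air, 236 to 254 in TAC/Benzene and 364 to 422 in TAC/Air. Its TAC groups were apart and its sham groups were not.

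Macrophage markers were mostly lower with benzene, with 1 call. The summed level of 28 listed macrophage and monocyte genes was 639 to 725 CPM in Sham/Benzene, 666 to 735 in Sham/Air, 588 to 626 in TAC/Benzene and 688 to 779 in TAC/Air. Over all 13571 tested genes, 6739 had a change above 0 on average. Of 27 tested macrophage and monocyte genes, 24 had a change below 0 on average and 1 passed, Cx3cr1. It encodes the receptor of fractalkine on monocytes and macrophages and had 2.64, 3.95 and 5.09 CPM in Sham/Benzene and 3.41, 4.29 and 5.11 CPM in Sham/Air. In TAC hearts it had 6.03, 7.13 and 8.23 CPM in TAC/Benzene and 11.2, 13.2 and 14.4 CPM in TAC/Air. Only the TAC groups were apart, and the average was -0.52 ± 0.10 (edgeR adjusted p = 0.0181). Adgre1, which encodes the macrophage surface protein F4/80, did not pass on average (-0.21 ± 0.063, adjusted p = 0.247) and was called in TAC (-0.46 ± 0.088, adjusted p = 0.00925). Ccr2, the receptor that brings monocytes out of the bone marrow, had -0.58 ± 0.21 in sham and -0.51 ± 0.19 in TAC and did not pass (average -0.54 ± 0.14, adjusted p = 0.138). The part that macrophage content has in the class II values was not tested.

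Mgl2, a lectin gene of macrophages and dendritic cells, joined them in the class of TAC only. It had 15.8, 16.8 and 23.3 CPM in Sham/Benzene and 11.9, 17.2 and 18.4 CPM in Sham/Air. It had 7.15, 7.28 and 8.12 CPM in TAC/Benzene and 10.2, 11.9 and 15.4 CPM in TAC/Air. The sham groups overlapped, with Sham/Benzene replicate 4 above the rest, and the TAC groups were apart. The change was -0.72 ± 0.12 in TAC and 0.09 ± 0.12 in sham (edgeR adjusted p of the difference = 0.032), and the average did not pass (-0.31 ± 0.083, adjusted p = 0.156).

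The rest of this class belonged to other tissues and tasks. Myot, the gene of the Z-disc protein myotilin, had 79.9, 86.1 and 90.9 CPM in Sham/Benzene and 81, 88.3 and 117 CPM in Sham/Air. In TAC the values were 140.4, 149.5 and 175 CPM in TAC/Benzene and 97.9, 104 and 107 CPM in TAC/Air. The change was 0.59 ± 0.084 in TAC and -0.10 ± 0.084 in sham (edgeR adjusted p of the difference = 0.00742). Only the TAC groups were apart. Pfkp, one of the phosphofructokinase genes of glycolysis, was higher in TAC by 0.40 ± 0.069 on the log2 scale, with 146, 152 and 159 CPM in TAC/Benzene and 111, 115 and 123 CPM in TAC/Air, and its difference between surgeries was just inside the threshold (edgeR adjusted p = 0.0435).

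Car3, the gene of a carbonic anhydrase of fat and muscle, changed by -1.57 ± 0.29 in TAC, with 0.927, 1.02 and 2.04 CPM in TAC/Benzene and 2.78, 3.49 and 5.54 CPM in TAC/Air, and by 0.38 ± 0.25 in sham. Wif1, an inhibitor of Wnt proteins, changed by -0.92 ± 0.19 in TAC, with 2.93, 3.37 and 4.13 CPM in TAC/Benzene and 4.99, 6.57 and 7.72 CPM in TAC/Air, and by 0.38 ± 0.19 in sham, where its unadjusted edgeR p of 0.0503 was just outside the limit of the class of opposite signs. Scara3, a scavenger receptor gene, changed by -0.67 ± 0.13 in TAC, with 4.7, 6.41 and 7.25 CPM in TAC/Benzene and 8.78, 9.73 and 10.9 CPM in TAC/Air, and by 0.24 ± 0.14 in sham. In each of these 3 the TAC/Benzene libraries lay below the TAC/Air libraries and the ranges of the sham groups overlapped. Of the 6 Sham/Benzene libraries, 5 lay above the Sham/Air range for Wif1 and 3 for Scara3. For Car3 4 lay above it and 2 below. Pfkp, Scara3 and Wif1 were the least stable, holding their place in 4, 7 and 4 of the 24 fits that left out 1 library, and Mgl2 and Car3 held it in 8 and 12. In contrast Lcn2, S100a8, S100a9, Retnlg, H2-Aa and Myot held it in all 24 and in each other alternative.

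**Figure D3:**
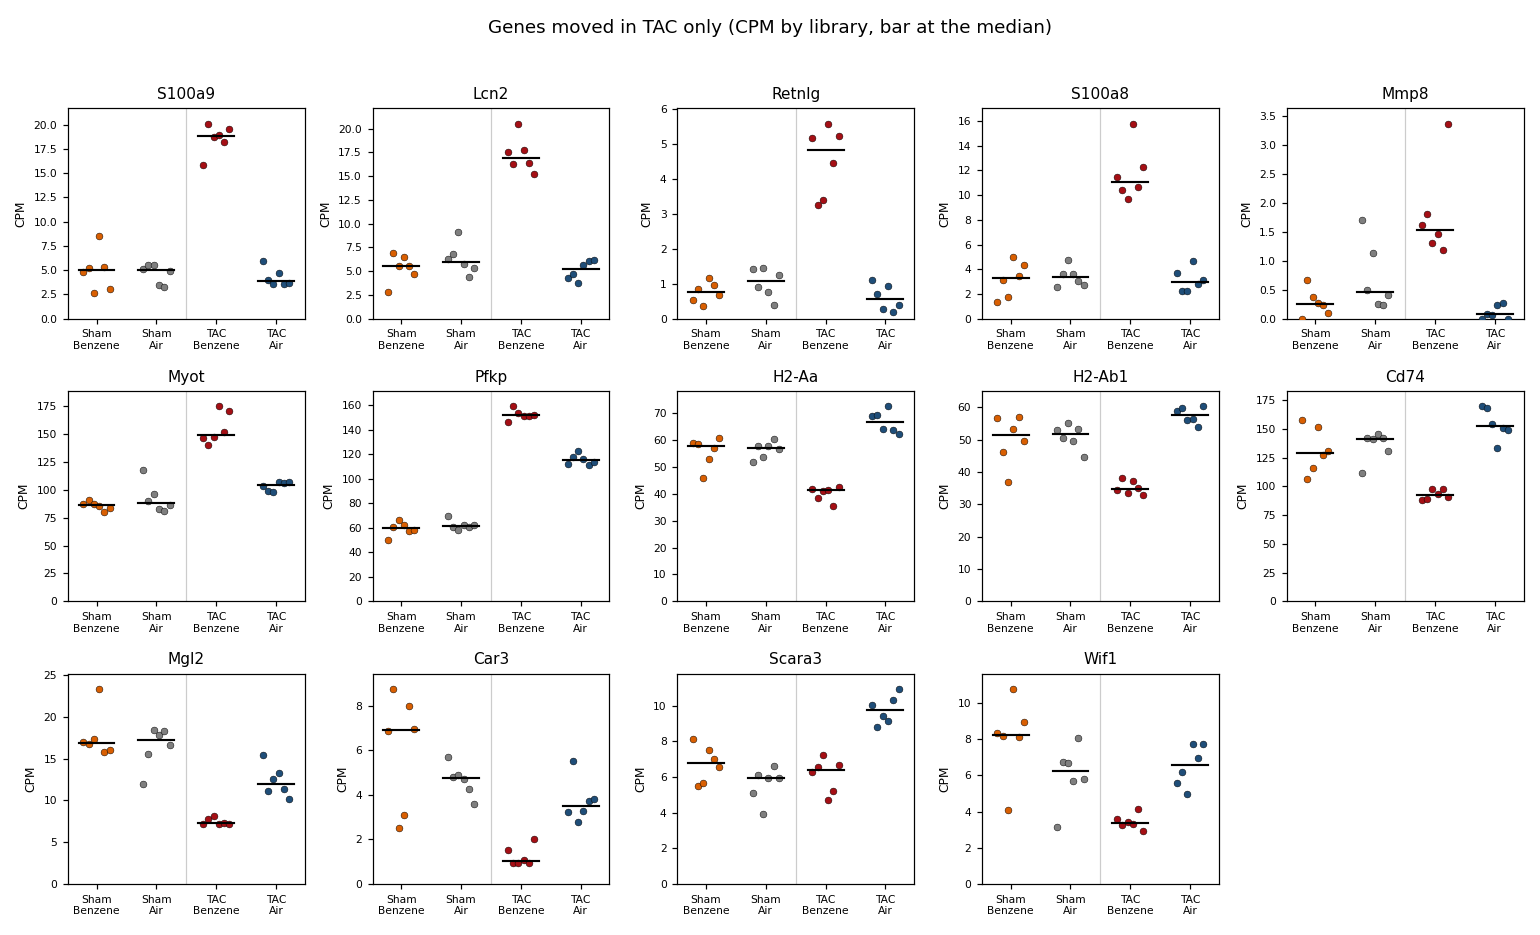
CPM of the 14 genes moved in TAC only, 1 panel a gene, on linear axes from 0; each point is a library (6 a group) and each bar the median of a group. In every panel the TAC/Benzene libraries lie wholly above (first 7 panels) or below (last 7) the TAC/Air libraries, and the 2 sham groups overlap.

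For 9 genes the 2 surgeries cancelled in the average. The difference between surgeries was called, and each surgery alone had an unadjusted p under 0.05 with the opposite sign; 31 tested genes (0.228%) met the part of this rule that concerns the 2 unadjusted p. Clec3a and Cyp2e1 fell under the rule for named genes, which was itself set with earlier results of these data known. The others were named after their values were seen. By the edgeR adjusted p, 0 of the 9 were called in sham alone.

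Clec3a and Chad, 2 genes of the cartilage list, had the largest differences of this set. Clec3a, a lectin gene of cartilage, had 1.85, 5.56 and 10.6 CPM in Sham/Benzene and 2.12, 2.71 and 7.96 CPM in Sham/Air. TAC hearts had 1.18, 2.19 and 3.55 CPM in TAC/Benzene and 7.7, 9.46 and 11.3 CPM in TAC/Air. In sham the groups overlapped, with Sham/Air replicate 1 far above its group, and the TAC/Benzene libraries were all below the TAC/Air libraries. The change was 0.94 ± 0.32 in sham and -2.15 ± 0.31 in TAC, and their difference was -3.09 ± 0.45 (edgeR adjusted p = 0.0013).

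Chad, which encodes the cartilage protein chondroadherin, had 2.22, 4.26 and 6.44 CPM in Sham/Benzene and 1.14, 2.29 and 2.77 CPM in Sham/Air. After TAC the levels were 1.36, 1.81 and 3.23 CPM in TAC/Benzene and 5.38, 6.24 and 7.06 CPM in TAC/Air. In sham 5 of 6 Sham/Benzene libraries were above the air range, and TAC/Benzene was wholly below TAC/Air. The change was 1.04 ± 0.26 in sham and -1.60 ± 0.24 in TAC (edgeR adjusted p of the difference = 0.000594). The 26 listed cartilage genes together had a median change near 0 on average (0.049, 18 tested, 0 called by edgeR). At an unadjusted p under 0.05, 2 were higher and 2 lower, and DESeq2 called 1, which was higher. Prg4, another listed gene, was higher with benzene (average 0.32, edgeR adjusted p = 0.167), with all 6 TAC/Benzene libraries above the air range. Together the 18 tested genes, Clec3a and Chad among them, had a median of 0.54 in sham and -0.37 in TAC. Sham/Benzene replicate 4 had the highest summed level of these genes in its group, 154 CPM against 115 CPM in the next library, and also of the listed atrial, mesothelial and nerve genes, 632 CPM against 463 CPM. Without it the cartilage median was -0.13 on average, 0.27 in sham and -0.37 in TAC. The part of atrial, mesothelial or nerve tissue in the cartilage values was not tested.

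Cyp2e1 encodes the enzyme that oxidises benzene. In the heart its level was low, at 2.85, 3.9 and 5.38 CPM in Sham/Benzene and 1.65, 2.34 and 2.9 CPM in Sham/Air. In TAC it was at 0.508, 1.17 and 1.49 CPM in TAC/Benzene and 2.07, 2.48 and 2.96 CPM in TAC/Air. Of the 6 Sham/Benzene libraries 5 lay above the air range, and all 6 TAC/Benzene libraries lay below theirs. The change was 0.81 ± 0.20 in sham and -1.14 ± 0.22 in TAC, with a difference of -1.95 ± 0.30 (edgeR adjusted p = 0.00173) and an average of -0.17 ± 0.15 (adjusted p = 0.836). The enzyme is most abundant in liver, and the 14 listed liver genes summed to 65 to 271 CPM in Sham/Benzene, 63.2 to 81.5 in Sham/Air, 68.9 to 86.2 in TAC/Benzene and 79.9 to 96.8 in TAC/Air. Of the 14, 4 were tested, with a median sham change of 1.27. Sham/Benzene replicate 1 had the highest liver sum, with 125 CPM in the next library, and also the highest Cyp2e1. The part of liver RNA in the Cyp2e1 values was not tested.

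Sele, the gene of E-selectin on inflamed endothelium, had 1.33, 1.96 and 2.88 CPM in Sham/Benzene and 2.02, 2.73 and 2.92 CPM in Sham/Air. With TAC it had 4.25, 5.82 and 6.03 CPM in TAC/Benzene and 2.44, 3.29 and 3.51 CPM in TAC/Air. In sham 4 of 6 benzene libraries were below the air range, and in TAC all 6 were above it. The change was -0.37 ± 0.17 in sham and 0.83 ± 0.15 in TAC (edgeR adjusted p of the difference = 0.0166). Once Sham/Air replicate 1 was left out, its sham change had an unadjusted edgeR p of 0.0653, which moves it to the class of TAC only. Fkbp5, a co-chaperone gene that glucocorticoids induce, had 22.6, 23 and 27.9 CPM in Sham/Benzene and 28.7, 30.3 and 33.5 CPM in Sham/Air. It had 34.8, 40.0 and 43.8 CPM in TAC/Benzene and 26.8, 31.9 and 38.1 CPM in TAC/Air. Every Sham/Benzene library was below every Sham/Air library, whereas the TAC groups overlapped with benzene above. The change was -0.36 ± 0.088 in sham and 0.31 ± 0.086 in TAC (edgeR adjusted p of the difference = 0.0141).

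The other 4 were Irf9, Tgtp2, H2-Q6 and Ecrg4, all higher with benzene in sham and lower in TAC. Irf9, the DNA-binding part of the interferon factor ISGF3, had 24.4, 27.1 and 30.4 CPM in Sham/Benzene and 17.3, 21.4 and 24.2 CPM in Sham/Air, with the sham groups apart, and 21.8, 23.5 and 24.3 CPM in TAC/Benzene and 23.7, 27.2 and 30.2 CPM in TAC/Air. Tgtp2, a GTPase gene that interferon gamma induces, changed by 0.32 ± 0.14 in sham and -0.68 ± 0.13 in TAC. H2-Q6, a class I gene of a large family, changed by 0.28 ± 0.11 in sham and -0.52 ± 0.11 in TAC. Tgtp2 and H2-Q6 have near copies with which reads may be shared, so their counts are uncertain. Ecrg4, the gene of a secreted peptide precursor, changed by 0.92 ± 0.28 in sham and -0.93 ± 0.20 in TAC. Of the 30 tested interferon-stimulated genes 0 were called on average by edgeR or DESeq2, and 5 had an unadjusted p under 0.05. By edgeR 0 were called in either surgery alone, and the difference was called for 1, Irf9. The list median was 0.057 in sham and -0.18 in TAC. The list summed to 607.7 to 687 CPM in Sham/Benzene and 576.3 to 803.2 in Sham/Air. The sums were 638.5 to 680.7 CPM in TAC/Benzene and 697.4 to 756.8 in TAC/Air, so only the TAC groups were apart. With 1 library left out, Irf9, H2-Q6, Sele and Tgtp2 kept this class in 8, 11, 15 and 20 of 24 fits, and Clec3a, Chad, Cyp2e1, Ecrg4 and Fkbp5 kept it in all 24.

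**Figure D4:**
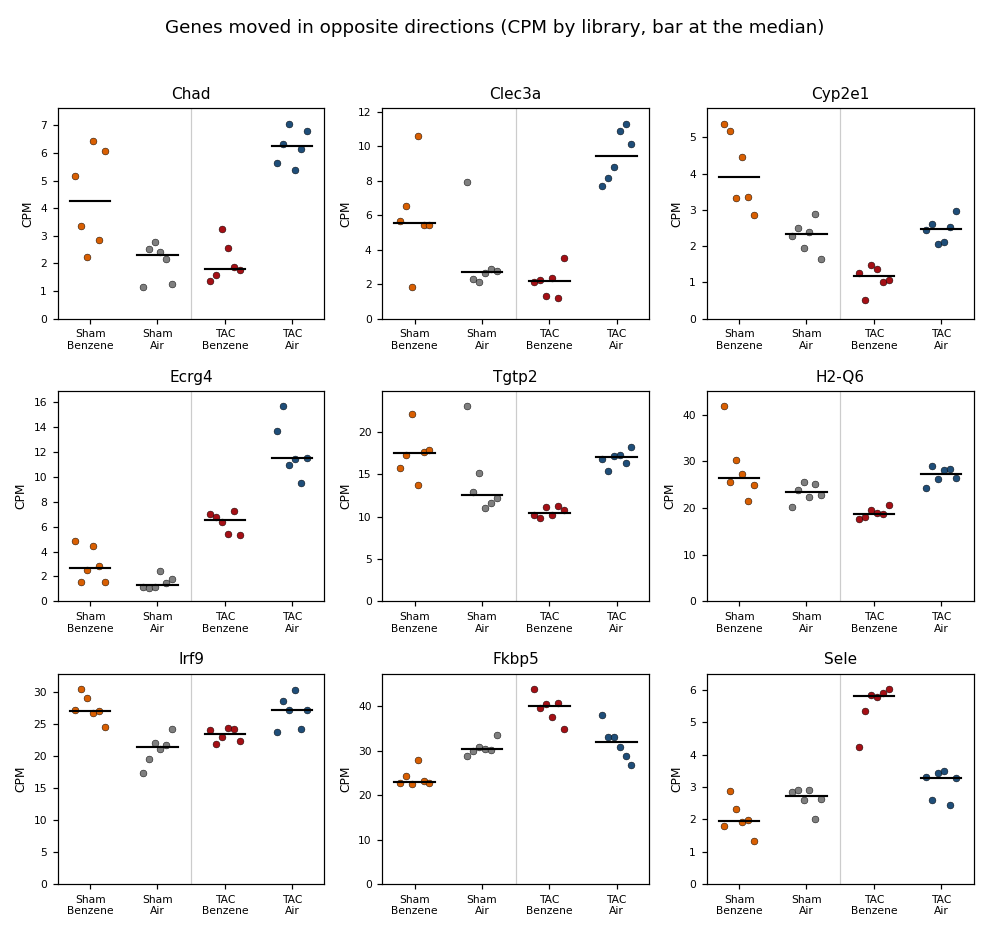
CPM of the 9 genes whose benzene effect had opposite signs in the 2 surgeries, 1 panel a gene, on linear axes from 0; each point is a library (6 a group) and each bar the median of a group. The first 7 genes are higher with benzene in sham and lower in TAC, and the last 2, Sele and Fkbp5, run the other way.

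The remaining 10 of the 26 genes met no class. The heat shock genes Hspa1b and Hspa1a encode the inducible HSP70 chaperones and had the largest average changes of the 26. Hspa1b had 2, 26.5 and 219 CPM in Sham/Benzene and 3.9, 4.96 and 5.96 CPM in Sham/Air. In the loaded hearts it had 11.3, 12.5 and 14.2 CPM in TAC/Benzene and 7.72, 8.34 and 10.6 CPM in TAC/Air. Sham/Benzene replicate 4 was far above all other libraries, with 219 CPM against 30.4 CPM in the next of its group, and Sham/Benzene replicate 1 lay below the whole Sham/Air range; the other 4 lay above it. The TAC groups did not overlap, at a much smaller difference. The average was 1.99 ± 0.40 (edgeR adjusted p = 0.0274), from 3.45 ± 0.60 in sham and 0.53 ± 0.55 in TAC (unadjusted edgeR p in TAC = 0.346). Without Sham/Benzene replicate 4 the average was 1.33 (adjusted p = 0.00907), and with Sham/Air replicate 1 left out as well it was 1.33 (adjusted p = 0.00605).

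Hspa1a had 2.32, 19.9 and 184 CPM in Sham/Benzene and 3.61, 5.46 and 8.66 CPM in Sham/Air. In TAC the values were 11.4, 15.4 and 18.3 CPM in TAC/Benzene and 7.15, 8.07 and 9.97 CPM in TAC/Air. The same 2 sham libraries stood out, replicate 4 high and replicate 1 low, and all 6 TAC/Benzene libraries again exceeded the TAC/Air range. The average was 1.93 ± 0.40 (edgeR adjusted p = 0.0353). Without Sham/Benzene replicate 4 it was 1.23 (adjusted p = 0.00989) and the TAC change reached an unadjusted edgeR p of 0.00644, which places Hspa1a among the genes moved in both surgeries. With Sham/Air replicate 1 left out, the average stayed at 1.94 and missed the threshold (adjusted p = 0.0562).

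Of the 35 tested heat shock chaperone genes, these 2 were called higher and 0 lower. Over all 13571 tested genes 17 were called higher (0.125%) and 9 lower (0.0663%). A change above 0 was seen for 27 of the 35, beside 6739 of all 13571 tested genes. The list median was 0.13 on the log2 scale. Dnajb1, a co-chaperone of HSP70, did not pass (0.63 ± 0.18, edgeR adjusted p = 0.22), with 1.21 in sham and 0.05 in TAC. Hspb1, a small heat shock protein gene, also did not pass (0.54 ± 0.16, adjusted p = 0.246), and its changes were 0.51 in sham and 0.57 in TAC.

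**Figure D5:**
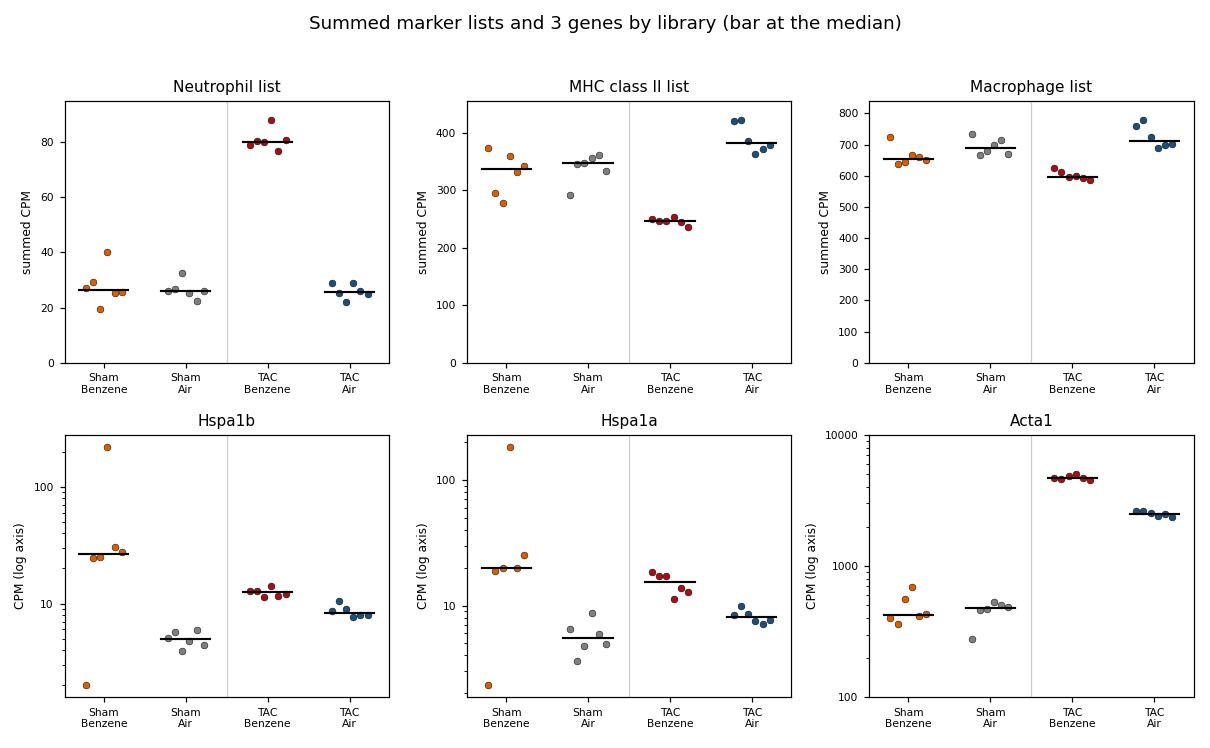
Summed CPM of the neutrophil, MHC class II and macrophage lists on linear axes from 0 (top row), and CPM of Hspa1b, Hspa1a and Acta1 on log axes (bottom row); each point is a library (6 a group) and each bar the median of a group. TAC/Benzene stands above TAC/Air for neutrophil genes (76.6 or more against 29.1 or less) and below it for class II and macrophage genes, and 1 Sham/Benzene library lies far above and 1 far below the others for the HSP70 pair.

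A group of muscle genes rose in TAC and passed on average without a called difference between surgeries. Acta1 encodes skeletal alpha actin, a fetal gene that load turns on. It had 360.5, 422 and 693 CPM in Sham/Benzene and 279, 476 and 534 CPM in Sham/Air. TAC hearts had 4515, 4666 and 5030 CPM in TAC/Benzene and 2385, 2507 and 2646 CPM in TAC/Air. Sham groups overlapped and the TAC groups were far apart. The change was 0.91 ± 0.14 in TAC (edgeR adjusted p = 0.000535) and 0.06 ± 0.14 in sham, and the average was 0.49 ± 0.10 (adjusted p = 0.0243). The interaction missed the threshold (adjusted p = 0.0917), and without Sham/Air replicate 1 it passed (adjusted p = 0.00135), which moves Acta1 to the class of TAC only.

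Abra, which encodes an actin-binding protein of striated muscle, had 46.3, 54.8 and 60.4 CPM in Sham/Benzene and 46.8, 48.9 and 53.7 CPM in Sham/Air. After TAC the levels were 154, 155 and 164 CPM in TAC/Benzene and 102, 116 and 118 CPM in TAC/Air. The sham groups overlapped, and every TAC/Benzene library exceeded every TAC/Air library. The average was 0.30 ± 0.051 (edgeR adjusted p = 0.00623), called in all 35 alternatives. Fhl1, a LIM domain gene of striated muscle, had 521, 551 and 666 CPM in TAC/Benzene and 310.5, 346 and 467 CPM in TAC/Air, and its average was 0.40 ± 0.083 (adjusted p = 0.0298), called in 13 of the 24 fits that left out 1 library.

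The rest of the fetal program did not pass on average. Of 23 tested genes of the fetal list, 2 were called higher (Acta1 and Fhl1) and 0 lower. Over all 13571 tested genes 17 were called higher (0.125%) and 9 lower (0.0663%). A change above 0 was seen for 20 of the 23, beside 6739 of all 13571 tested genes, and the list median was 0.17. With Sham/Air replicate 1 and Sham/Benzene replicate 4 both left out it was 0.076. In TAC 3 of the 23 were called higher, beside 40 of all tested genes (0.295%), and in sham 0. The 24 listed genes, Acta1 among them, summed to 8436 to 10240 CPM in Sham/Benzene and 9512 to 11700 in Sham/Air. The sums were 32370 to 34530 CPM in TAC/Benzene and 24690 to 29100 in TAC/Air, so only the TAC groups were apart. Nppa, the gene of atrial natriuretic peptide, had 0.22 ± 0.10 on average (edgeR adjusted p = 0.671). For Nppb, the B-type peptide, it was 0.13 ± 0.11 (adjusted p = 0.833). Myh7, beta myosin heavy chain, had 0.06 ± 0.080 and Myh6, alpha myosin heavy chain, had -0.09 ± 0.090. Atp2a2, the calcium pump of the sarcoplasmic reticulum, had -0.06 ± 0.056. Of the last 3 none passed (adjusted p = 0.868, 0.846 and 0.846). All 6 TAC/Benzene libraries lay above the TAC/Air range for Nppb, and 4 of 6 did for Nppa. For Myh7 4 lay above that range and 1 below it. Nmrk2, a kinase gene of NAD synthesis in muscle, did not pass on average (0.30 ± 0.10, adjusted p = 0.315) and was called in TAC (0.76 ± 0.13, adjusted p = 0.00405).

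Agt, the gene of angiotensinogen, had 3.42, 4.59 and 6.45 CPM in Sham/Benzene and 1.99, 3.28 and 4.72 CPM in Sham/Air. With TAC it had 4.26, 5.86 and 7.11 CPM in TAC/Benzene and 1.4, 2.77 and 3.71 CPM in TAC/Air. In sham the groups overlapped, with 3 benzene libraries above the air range, and the TAC groups were apart. The average was 0.78 ± 0.15 (edgeR adjusted p = 0.0243), and it held in 17 of the 24 fits that left out 1 library. Gatm, which encodes the first enzyme of creatine synthesis, had 4.53, 5.23 and 7.49 CPM in Sham/Benzene and 5.15, 6.38 and 7.58 CPM in Sham/Air, and 3.82, 4.66 and 5.88 CPM in TAC/Benzene and 5.78, 9.67 and 10.1 CPM in TAC/Air. Its average change was -0.57 ± 0.11 (adjusted p = 0.0181). Both of its pairs of groups overlapped, with 5 of 6 TAC/Benzene libraries below the air range.

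Tacc2 and St3gal5 completed the set and were named because they are among the 26. Tacc2, a gene of a protein bound to centrosomes and microtubules, had 399.8, 451 and 479 CPM in TAC/Benzene and 280.3, 296 and 342 CPM in TAC/Air, and its average was 0.34 ± 0.060 (edgeR adjusted p = 0.00639). St3gal5, the gene of the enzyme that makes the ganglioside GM3, had 79.9, 86.9 and 93.5 CPM in TAC/Benzene and 57, 63.9 and 66.6 CPM in TAC/Air, and its average was 0.26 ± 0.052 (adjusted p = 0.0246). In both the TAC groups were apart, and in sham the changes were 0.12 for Tacc2 and 0.07 for St3gal5. Without Sham/Air replicate 1 their interactions passed (adjusted p = 0.0107 and 0.00839), which moves both to the class of TAC only.

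The pathways that handle benzene and its products were then examined. For scale, 983 of all 13571 tested genes had an unadjusted p under 0.05 on average. Of 24 tested genes of benzene and xenobiotic metabolism 0 were called on average by edgeR or DESeq2, and 3 had an unadjusted p under 0.05. The median was -0.021. In TAC 1 of the 24 was called lower and 0 higher by edgeR. The difference between surgeries was called for 1, Cyp2e1, whose 2 changes cancel in the average as given above. Cyp1b1, an oxidising enzyme that the aryl hydrocarbon receptor induces, had the smallest average p of the 24 and did not pass (-0.39 ± 0.13, edgeR adjusted p = 0.308). Among 9 tested genes of that receptor and its targets 0 were called by either tool and 2 had an unadjusted p under 0.05, one of them Ahr itself (-0.26 ± 0.089, adjusted p = 0.359). Cyp1a1, another of the targets, also did not pass. Its raw counts per library were 14 to 274 in Sham/Benzene, 4 to 32 in Sham/Air, 0 to 4 in TAC/Benzene and 1 to 12 in TAC/Air. In CPM, 3 of 6 Sham/Benzene libraries lay above the air range and 1 below it. Of 26 tested antioxidant genes of the Nrf2 pathway 0 were called by either tool and 1 had an unadjusted p under 0.05. Nqo1, which reduces quinones such as those made from benzene, had -0.05 ± 0.070 (adjusted p = 0.876).

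Lists of energy and contraction genes had 0 calls and medians near 0. Of 47 tested respiratory chain genes 0 were called by edgeR or DESeq2 and 0 had an unadjusted p under 0.05, and the median was 0.005. Of 34 genes of fatty acid oxidation 0 were called by either tool and 4 had an unadjusted p under 0.05, among them Pdk4, the kinase that holds back pyruvate oxidation (0.40 ± 0.11, adjusted p = 0.209). Of 30 adult contractile and calcium genes 0 were called by either tool and 0 had an unadjusted p under 0.05.

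In other lists the members leaned one way with few or no calls. Over all 13571 tested genes, 6739 had a change above 0 on average and 983 had an unadjusted p under 0.05. Of 24 immediate early genes, 22 had a change above 0 (median 0.24), 0 were called by edgeR and 2 by DESeq2, and 9 had an unadjusted p under 0.05. Atf3 and Egr2, both transcription factors of early stress and growth responses, had 0.55 ± 0.13 and 0.75 ± 0.20 (edgeR adjusted p = 0.086 and 0.164). The median of this list was 0.11 with both doubted libraries, Sham/Air replicate 1 and Sham/Benzene replicate 4, left out. Of 31 cell cycle genes, 27 had a change below 0 (median -0.22), 0 were called by edgeR and 1 by DESeq2, and 11 had an unadjusted p under 0.05. Mcm6, a subunit of the replicative helicase, had -0.31 ± 0.080 and Top2a, a topoisomerase of dividing cells, had -0.58 ± 0.17 (adjusted p = 0.142 and 0.24). Of 47 matrix genes 1 was called, Spon1, and Thbs2, which encodes thrombospondin 2, was called in TAC (-0.55 ± 0.11, adjusted p = 0.00963) and not on average (-0.31 ± 0.076, adjusted p = 0.093).

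Blood cell markers other than those of neutrophils and macrophages had 0 calls. Over all 13571 tested genes, 983 had an unadjusted p under 0.05 on average and 6739 had a change above 0. Of 28 listed lymphocyte genes 7 could be tested; 0 were called by edgeR or DESeq2, 4 had an unadjusted p under 0.05, all lower, and the median was -0.40. Their summed level was 11.4 to 18.9 CPM in Sham/Benzene, 18.2 to 22.4 in Sham/Air, 19.3 to 24.1 in TAC/Benzene and 22.2 to 28.4 in TAC/Air, and both pairs overlapped. Red cell genes had 0 calls among 5 tested by either tool and 1 at an unadjusted p under 0.05. Their sums of 219 to 269 in Sham/Benzene, 233 to 292 in Sham/Air, 206 to 236 in TAC/Benzene and 203.6 to 249.4 CPM in TAC/Air overlapped as well. Among 22 tested glucocorticoid-responsive genes 3 were called higher (Lcn2, Mt2 and Cdkn1a, all counted above) and 0 lower. Over all tested genes 17 were called higher (0.125%) and 9 lower (0.0663%). Of the 22, 18 had a change above 0, and the median was 0.15. Hypoxia-responsive genes had 0 calls among 21 by edgeR and 2 by DESeq2, with 7 at an unadjusted p under 0.05 and a median of 0.047.

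Once Sham/Air replicate 1 was left out, edgeR called 54 genes higher and 47 lower on average, 41 in both surgeries and 32 in TAC only, and 25 of the 26 genes stayed called. The rank correlation of a library's deviations with GC content ran from -0.485 to 0.591 in Sham/Benzene, -0.752 to 0.583 in Sham/Air, -0.216 to 0.563 in TAC/Benzene and -0.528 to 0.54 in TAC/Air. With offsets for GC content and transcript length 70 were higher and 75 lower, against the main split of 17 and 9, and 24 of the 26 stayed called.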

How the data were processed

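Poly-A RNA of 24 mouse heart libraries was sequenced as paired ends, per the labels' protocols. The values used are raw read counts by gene symbol, in a single table that the authors deposited without normalization. Tools named in the submitters' processing notes are DESeq2, STAR and FastQC 0.11.9, and the genome build named there is mm9. Which program counted the reads, on which annotation and with which strand setting, is not given in the sources used here, so overlapping, antisense and near-identical genes may share reads. Groups and replicate numbers came from the sample titles.

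The table held 25229 symbols. The filter of edgeR 4.0.16 (R 4.3.3; minimum count 10, minimum total 15) kept 13571 genes, and the others held 0.0747% of counts. Library sizes were scaled by TMM, and 1 robust quasi-likelihood fit with 1 coefficient per group was made on all 24 libraries, so that surgery stayed in the model. Benzene against air was tested averaged over surgery, in sham, in TAC and as their difference, each with Benjamini-Hochberg adjustment over all tested genes at 0.05. A standard error is the size of the log2 fold change over the square root of F. The fit was tested on simulated data. The closest pair of libraries had a chi-square of 1.81 per degree of freedom, so none was taken as a duplicate.

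Alternatives were DESeq2 1.42.0, limma-voom (limma 3.58.1) with sample weights, relative log expression factors, other filters, GC content and length offsets, a replicate block, an additive model, fits of only the 2 groups compared, and each library left out. Leaving out Sham/Air replicate 1 and Sham/Benzene replicate 4 together was chosen after seeing the data.

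The comparison, gene lists and named genes were chosen with earlier results of these data known. Named genes were the 10 highest, 10 lowest and 10 smallest p among called genes that averaged 1 CPM or more, up to 8 per class and direction, up to 4 per list by smallest p, and 10 set genes. Outside this rule, Tacc2, St3gal5, Chad, Tgtp2, H2-Q6, Ecrg4, Irf9, Sele and Fkbp5 were named after their values were seen, and some genes that the rule names are given only within counts.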

Additional observations from a re-analysis of the deposited data

Results flagged for a closer look

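Single libraries were compared with the other 5 of their group on the log2 CPM scale for 66 genes in 4 groups, 264 groups of values in all. In 34 of them the highest or lowest library lay beyond Dixon's limit, which chance gives in about 1 of 20 groups, and 20 of the 34 fell on Sham/Air replicate 1. In that library 7 genes were high: Myh6 at 42100 CPM, Atp2a2 at 23300 CPM, Mylk4 at 570 CPM, Myh7 at 424 CPM, Pdk4 at 407 CPM, Pfkp at 69.6 CPM and Clec3a at 7.96 CPM. The other 13 were low there. Of the genes moved in both surgeries these were Serpina3n at 15.6 CPM, Cdkn1a at 8.81 CPM and Mt2 at 7.39 CPM, with Mt1 at 73.6 CPM. Muscle genes were Acta1 at 279 CPM, Tacc2 at 276 CPM, Nppa at 155 CPM and Nppb at 123 CPM. The rest were St3gal5 at 58.8 CPM, Hspb1 at 57.1 CPM, Nqo1 at 50.6 CPM, H2-Eb1 at 24.1 CPM and Dnajb1 at 6.25 CPM. The part that this library has in the averages of these genes is given by the counts without it in the next section.

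Sham/Benzene replicate 4 was high for Icam1 (30.2 CPM), Fkbp5 (27.9 CPM), Mgl2 (23.3 CPM) and Egr2 (4.25 CPM). Its peaks of Hspa1a and Hspa1b stayed inside Dixon's limit on the log2 scale because replicate 1 was low for the same pair. Sham/Benzene replicate 1 was high for Nmrk2 (22 CPM) and Gatm (7.49 CPM) and low for Col6a6 (6.33 CPM), and replicate 3 of that group was low for Wif1 (4.07 CPM). Single values elsewhere were Abra at 164 CPM in TAC/Benzene replicate 1 (high), Sele at 4.24 CPM in the same library (low), Hspb1 at 311 CPM in TAC/Benzene replicate 6 (low), Ahr at 14.3 CPM in TAC/Air replicate 2 (low), Csf3r at 4.07 CPM in TAC/Air replicate 5 (high) and Sele at 2.02 CPM in Sham/Air replicate 5 (low).

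The effect of benzene differed between TAC and sham for 23 genes by the test of the difference itself (edgeR). The difference, TAC minus sham on the log2 scale, was above 0 for 9. The neutrophil genes had 3.14 for Retnlg, 1.98 for S100a9, 1.98 for S100a8 and 1.97 for Lcn2. Mmp8 had 4.93, a size that depends on the prior count, and it passed the count filter through TAC/Benzene. The others above 0 were Sele at 1.20, Myot at 0.69, Fkbp5 at 0.67 and Pfkp at 0.47. It was below 0 for 14. Cartilage genes had -3.09 for Clec3a and -2.64 for Chad. Class II genes had -0.71 for H2-Aa, -0.69 for Cd74 and -0.68 for H2-Ab1. The rest were Car3 at -1.95, Cyp2e1 at -1.95, Ecrg4 at -1.85, Wif1 at -1.30, Tgtp2 at -0.998, Scara3 at -0.91, Mgl2 at -0.81, H2-Q6 at -0.80 and Irf9 at -0.59.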

How the results depend on the processing

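Values moved most with Sham/Air replicate 1, with the offsets and with the test; no gene result reversed while called. Counts are given for genes higher and lower on average, then called in sham, called in TAC, called for the difference, moved in both surgeries, moved in TAC only and moved in sham only, against 17, 9, 3, 79, 23, 9, 14 and 0 in edgeR. DESeq2 gave 55, 48, 28, 171, 57, 48, 32 and 4, and kept all 26 calls. Limma-voom with sample weights gave 94, 93, 6, 556, 93, 80, 53 and 0. GC content and length offsets gave 70, 75, 18, 239, 55, 78, 28 and 3, and without Sham/Air replicate 1 these offsets gave 172, 155, 38, 616, 184, 130, 118 and 8. Leaving out Sham/Air replicate 1 and Sham/Benzene replicate 4 gave 44, 31, 7, 266, 69, 31, 39 and 0. The additive model gave 7 higher and 5 lower and kept 10 of the 26 calls. Fits of only the 2 groups compared called 1 gene in sham and 276 in TAC. Without the filter on low counts 1 gene was called in sham. Relative log expression factors and the other filter, set at an average of 1 CPM, left every count within 1.5 times.

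Leaving out 1 library gave 8 to 54 genes higher, 8 to 47 lower, 1 to 5 in sham, 52 to 234 in TAC, 15 to 49 for the difference, 5 to 41 in both surgeries, 8 to 32 in TAC only and 0 to 1 in sham only. Without Sham/Air replicate 1 the counts were the highest, except in sham and sham only; the next highest were 21, 14, 85, 26, 14 and 14 for higher, lower, TAC, the difference, both and TAC only. The fewest higher genes came without TAC/Air replicate 5 and without TAC/Benzene replicate 4. The cause of these shifts was not tested.

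The replicate block gave 9 higher genes, 46 in TAC, 14 for the difference, 4 in both surgeries and 8 in TAC only, and kept 15 of the 26 calls; with the offsets it gave 48 higher, 48 lower, 169 in TAC, 49 in both surgeries and 1 in sham only. Same-numbered libraries correlated at -0.033 to 0.47 over 12 pairs, 9 of them over 0.1, and 8 of the 24 libraries correlated best with their own number. The labels do not say what a number marks, and not every pair was over 0.1, so the block was kept as an alternative.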

Other observations

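A wider set of genes was called on average once the libraries were treated in another way. Leaving out Sham/Air replicate 1 gave 101 calls, offsets for GC content and length gave 145, and offsets without that library gave 327. In all 3 fits 73 genes were called, of which 23 are among the 26 genes described above and 50 are not; these 50 were chosen after their values were seen, 21 being higher and 29 lower with benzene. The lower ones include receptors and proteins of macrophages: Csf1r, the receptor of macrophage colony-stimulating factor, had a log2 fold change of -0.27 without Sham/Air replicate 1 (edgeR adjusted p = 0.00153) and -0.21 with all libraries (adjusted p = 0.518). Tlr7, a sensor of single-stranded RNA, had -0.55 and -0.69 in these fits (edgeR adjusted p = 0.0282 and 0.093), and Mpeg1, which encodes a pore-forming protein of macrophages, had -0.27 and -0.31 (adjusted p = 0.0376 and 0.086). Vwf, the von Willebrand factor gene of endothelium, had -0.25 and -0.18 (adjusted p = 0.0303 and 0.749).

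The higher ones include Pdk4, at 0.49 without Sham/Air replicate 1 and 0.40 with all libraries (edgeR adjusted p = 0.00588 and 0.209). Hspa5, the chaperone BiP of the endoplasmic reticulum, had 0.19 and 0.12 (edgeR adjusted p = 0.0418 and 0.782), and Atf3 had 0.54 and 0.55 (adjusted p = 0.0398 and 0.086). Bnip3, a mitophagy receptor gene that hypoxia induces, had 0.20 and 0.18 (adjusted p = 0.0223 and 0.185). Pdk4, Hspa5, Atf3, Tlr7 and Vwf met the rule for both surgeries in the fit without that library, and Csf1r, Mpeg1 and Bnip3 did not.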
